A study of Mus musculus with 6 samples.

Results

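The 9 genes described here encode the brakes of the cell cycle that hold a cell in G1: 6 inhibitors of cyclin-dependent kinases (Cdkn1b, Cdkn1c, Cdkn2a, Cdkn2b, Cdkn2c and Cdkn2d) and the 3 pocket proteins that these kinases inactivate (Rb1, Rbl1 and Rbl2). They were taken by symbol from a deposited table of 14484 genes, and all 9 were present, so none was missing. RNA came from mouse skin on a C57BL/6-129J background. All 6 samples carried Braf CA/+ and were positive for Cre, and they differed in Atr: 3 samples were ATR +/+ (ATR WT) and 3 were ATR fl/fl, named ATR mD/mD, in which part of the kinase domain of Atr was removed. Braf CA gives an activated Braf kinase once Cre has acted, and the design text of the series calls the samples nevi, benign growths of pigment cells. The promoter that drives Cre, the ages of the mice and whether each library is a separate animal are not stated in the labels used here, so a p-value here speaks only of the spread among these libraries.

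Cyclin-dependent kinases with cyclin D or cyclin E phosphorylate the pocket proteins, and the hypophosphorylated pocket proteins bind E2F factors and hold back genes of DNA replication and mitosis. The INK4 proteins bind Cdk4 and Cdk6 and block them, whereas the CIP/KIP proteins p27 and p57 bind cyclin and kinase complexes more broadly. In nevi, melanocytes with an activated Braf kinase stop dividing, and p16, encoded by Cdkn2a, is a known marker of that arrest. In skin the same genes also act outside pigment cells, for example in keratinocytes that leave the cycle to differentiate and in the dividing matrix of the growing hair follicle.

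Cdkn2a and Cdkn2b lie side by side on chromosome 4 (mm10), Cdkn2a from 89274471 to 89294653 and Cdkn2b from 89306299 to 89311039, both on the minus strand and 11645 bases apart. Cdkn2a has 2 start sites, and the annotation lists 2 transcripts, both coding. The outer start, nearer Cdkn2b, gives the Arf transcript and the inner start gives p16, 2 proteins read in different frames of a shared exon. A count for Cdkn2a therefore sums p16 and Arf, and the deposited counts cannot tell them apart. The 3 starts of this locus are shown because both genes were highest in the same 3 libraries, as described below, and the start of Rbl1 because it is a known E2F target. Each line is a stretch of 120 bases before a RefSeq start (GRCm38.p6), on the gene's own strand from 5′ to 3′, with capitals for a match to an E2F word. For the locus the stretch runs from 170 to 51 bases before the start, and for Rbl1 from 120 bases to 1 base before it.
Cdkn2a, Arf start (chr4:89294670-89294789, minus strand): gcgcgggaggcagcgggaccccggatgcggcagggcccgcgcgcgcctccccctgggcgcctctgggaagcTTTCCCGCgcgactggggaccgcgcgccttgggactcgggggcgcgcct
Cdkn2a, p16 start (chr4:89282243-89282362, minus strand): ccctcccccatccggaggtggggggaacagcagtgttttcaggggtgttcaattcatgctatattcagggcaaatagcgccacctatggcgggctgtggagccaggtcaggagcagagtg
Cdkn2b (chr4:89311083-89311202, minus strand): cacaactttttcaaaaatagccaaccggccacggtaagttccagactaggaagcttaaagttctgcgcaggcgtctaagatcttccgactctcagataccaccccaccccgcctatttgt
Rbl1 (chr2:157204535-157204654, minus strand): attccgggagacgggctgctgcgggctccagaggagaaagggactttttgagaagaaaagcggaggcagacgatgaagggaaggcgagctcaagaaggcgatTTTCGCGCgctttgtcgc

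The E2F words searched were TTTCCCGC, TTTCGCGC, TTTGCCGC and TTTGGCGC, on both strands, in the 250 bases before each start. Of 32851 such windows over the genome, 1.86% held at least 1 of these words. Of the 9 genes, 7 had an entry in the RefSeq promoter table, and 2 held a match in at least 1 window. Cdkn2a and Cdkn2c had more than 1 window, so this count by gene is unlike the share of windows above. The window of the p16 start of Cdkn2a held no match. In Rbl1 the word TTTCGCGC began 18 bases before the start, and in Cdkn2a the word TTTCCCGC began 99 bases before the RefSeq Arf start. GENCODE, the source of the gene span above, places that start 34 bases farther upstream, which makes the distance 65 bases. For Rbl1, GENCODE starts the only coding transcript at 157204512, downstream of the RefSeq start at 157204534. The distance of the Rbl1 word is longer by that start. A second motif, the CHR element bound by the MuvB complex (TTTGAA or TTCGAA, both strands), was in 17.1% of windows and in those of Cdkn2b and Rbl2. These matches are descriptions of letters in a window.

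The libraries held between 34723600 and 46847751 gene counts. Basal keratinocyte markers, the defining genes of skin epithelium, were all measured and summed to between 10602 and 15490 CPM (read counts scaled to the size of the library) in a library, and all 12 melanocyte markers were measured and summed to between 158.8 and 947 CPM. Skeletal muscle markers summed to between 7697 and 35176 CPM. Atr itself measured 22.1 ± 3.87 CPM across the ATR WT samples against 22.6 ± 2.00 CPM across the mutant ones (SD, n = 3), and a count over the whole gene does not check a deletion of part of it. The log2 fold changes of Atr and Braf were 0.031 (SE 0.172) and -0.15 (SE 0.304). The libraries fell into 2 sets by the mean level of 34 hair follicle and hair shaft genes, and these sets cut across genotype unevenly. That level reached 6.61 log2 CPM for ATR WT 2, 6.84 for ATR WT 3 and 6.82 for ATR mD/mD 3. It was 1.27 for ATR WT 1, -0.84 for ATR mD/mD 1 and 1.66 for ATR mD/mD 2. The level of 4 Y-linked genes was uneven too, with sums of 151.9 to 201.6 CPM in 1 of 3 ATR WT libraries (number 1) and 2 of 3 ATR mD/mD libraries (numbers 2 and 3), and at most 0.143 CPM in the others. The 3 libraries of the high set are called the libraries with a high hair level below, and these sets were read from the data.

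None of the 9 genes differed between the genotypes past the threshold. With the quasi-likelihood test of edgeR and p-values adjusted over all genes, 0 of 9 passed a threshold of 0.05, where 7 of 14484 genes did, or 0.0483% of all genes. The adjusted p of edgeR was 0.9999 for each of the 9. At an unadjusted p under 0.05 edgeR gave 0 of the 9, against 1.66% of all genes, and DESeq2 gave 1 of the 9, Cdkn1c, against 2.08% of all genes. DESeq2 called 0 of the 9 after adjustment, against 0.27% of all genes. Neither limma-voom nor the exact test of edgeR called any of the 9. Over all genes limma-voom called 0.0483% after adjustment and 1.78% before it, and the exact test called 0.173% and 1.26%. The median log2 fold change of the 9 genes was -0.040, beside 0.0070 over all genes, with 7 below 0 and 2 above. In no gene of the 9 did the values of the groups separate, where 4.84% of all genes showed no overlap. With a background of 0.0483%, a count of 0 in 9 genes says little about these genes as a group.

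**Figure D1:**
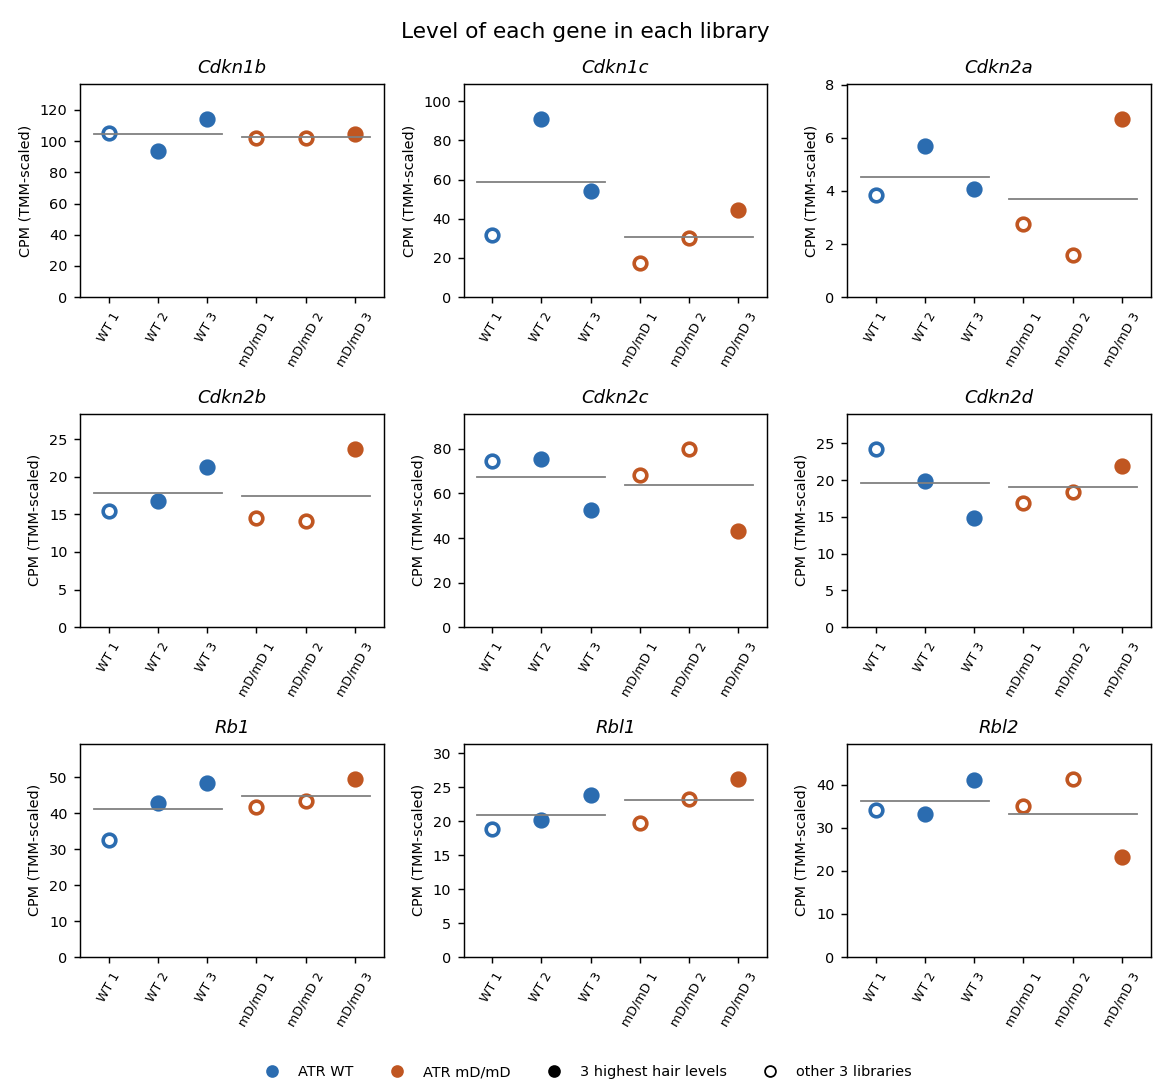
Level of each of the 9 genes (y axis, CPM after TMM scaling, from 0) in the 6 libraries (x axis), blue for ATR WT and orange for ATR mD/mD, with filled points for the 3 libraries with the highest hair gene level and grey lines for group means. Cdkn1b is nearly level, from 93.8 to 114 CPM, whereas Cdkn1c spans 17.6 to 90.8 CPM, and in every panel the 2 groups overlap.

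Of the CIP/KIP inhibitors, Cdkn1b was the steadiest of the 9 genes and Cdkn1c the most variable. Cdkn1b encodes p27, which holds cyclin E and cyclin A complexes of Cdk2 inactive and is removed by ubiquitination as cells enter S phase (chromosome 6, 134920401 to 134925513, plus strand). It measured 105.3, 93.8 and 114 CPM across ATR WT 1 to 3, against 102.2, 102 and 104.5 CPM across ATR mD/mD 1 to 3. All 3 ATR mD/mD values lay inside the range of ATR WT, and the highest library was 1.22 times the lowest. The log2 fold change was -0.021 (SE 0.124). Since p27 is controlled largely through protein turnover, a level of RNA does not measure its protein.

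Cdkn1c encodes p57, an imprinted inhibitor expressed mainly from the maternal copy and needed for cells to leave the cycle in several developing tissues (chromosome 7, 143458339 to 143461050, minus strand). It measured 31.8, 90.8 and 54.1 CPM across ATR WT 1 to 3, against 17.6, 30.2 and 44.7 CPM across ATR mD/mD 1 to 3. ATR WT 2 was far above the rest, and the 3 libraries with a high hair level held the 3 highest values. The groups overlapped, since ATR mD/mD 3 lay above ATR WT 1. The wild-type mean was 58.9 ± 29.8 CPM and the mutant mean 30.8 ± 13.5 CPM (SD, n = 3). This was the largest genotype difference among the 9 genes, a log2 fold change of -0.93 (SE 0.465, unadjusted p = 0.0874, edgeR). DESeq2 gave the same size with an unadjusted p of 0.0392 and an adjusted p of 0.99998. In the authors' deposited table the log2 fold change of Cdkn1c is -0.93 with a p of 0.029 and an adjusted p of 1, in a table with 0.152% of genes past an adjusted p of 0.05. Marker lists of fibroblasts, melanocytes and hair also lay lower in ATR mD/mD as estimated. No gene of these lists passed an adjusted p of 0.05 (edgeR). Other lists lay mostly above 0, with 9 of 10 basal keratinocyte, 6 of 10 suprabasal keratinocyte and 9 of 10 adipocyte markers. So did 7 of 10 macrophage, 6 of 8 endothelial and 18 of 20 proliferation markers. Proliferation markers summed to 1410 CPM in ATR mD/mD 3, but to 611.9 and 584.1 CPM in ATR mD/mD 1 and 2. Across ATR WT 1 to 3 they summed to 686.2, 935.6 and 833.5 CPM, so these estimates above 0 went with a single library. Of skeletal muscle and T cell markers, 8 of 10 and 5 of 8 were below 0. All 10 fibroblast markers had a log2 fold change below 0, with a median of -0.33. Their sums ran from 14665 to 18247 CPM over the ATR WT libraries and from 7779 to 16901 CPM over the ATR mD/mD libraries. ATR mD/mD 1, the lowest library for Cdkn1c, had the lowest of these sums. The highest was in ATR WT 1, where Cdkn1c was at 31.8 CPM, and ATR WT 2, the highest for Cdkn1c, had a sum of 16766 CPM. All 12 melanocyte markers were below 0 with a median of -0.56, with sums of 219.9 to 947 CPM against 158.8 to 942.4 CPM. All 34 hair genes were below 0 with a median of -0.74, with sums that ranged up to 14699 CPM and 14726 CPM and were lowest in ATR mD/mD 1. Of these lists, 1 hair gene was at 0 in a library, and the part of these cells in the Cdkn1c difference was not tested. The antisense gene Gm44732 overlaps Cdkn1c, and these libraries do not mark the strand.

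The Cdkn1c estimate was smaller without ATR WT 2 and with the hair level taken into the fit. Without ATR WT 2 the log2 fold change was -0.48 (unadjusted p = 0.315), whereas without ATR mD/mD 3 it was -1.30 (unadjusted p = 0.042, adjusted p = 0.708, edgeR) and without ATR WT 1 it was -1.22 (unadjusted p = 0.0303, adjusted p = 0.993, edgeR). With the hair gene level as a covariate it was -0.499 (unadjusted p = 0.0933, adjusted p = 0.998, edgeR). Within each hair set, each ATR mD/mD value was nevertheless below each ATR WT value. Among the libraries with a high hair level, 44.7 CPM in ATR mD/mD 3 stood against 90.8 and 54.1 CPM in the wild-type libraries, and among the others 17.6 and 30.2 CPM stood against 31.8 CPM in ATR WT 1. The last gap, from 30.2 to 31.8 CPM, is small. This order, looked at after the values were seen, held for 10.7% of all genes in the same direction, so it is a common one.

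The INK4 genes of the chromosome 4 locus did not separate the genotypes, and both had their 3 highest values in the 3 libraries with a high hair level. The reads counted for Cdkn2a numbered 140, 247 and 199 across ATR WT 1 to 3, against 96, 63 and 234 across ATR mD/mD 1 to 3. As levels these were 3.86, 5.68 and 4.07 CPM for the wild type, against 2.75, 1.60 and 6.70 CPM for the mutant. ATR mD/mD 3 was the highest of all 6 libraries and ATR mD/mD 2 the lowest, a 4.19-fold span that ran through 1 genotype. The log2 fold change was -0.30 (SE 0.529, unadjusted p = 0.586, edgeR), and it depended on single libraries, from -1.06 (unadjusted p = 0.0261) without ATR mD/mD 3 to 0.057 without ATR mD/mD 2. Its SE was larger than the difference itself.

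Cdkn2b encodes p15, an INK4 protein that is known to be induced by TGF-beta. It measured 15.4, 16.7 and 21.3 CPM across ATR WT 1 to 3, against 14.5, 14.1 and 23.7 CPM across ATR mD/mD 1 to 3. The 3 libraries with a high hair level were again the 3 highest, and the other 3 lay within 14.1 to 15.4 CPM. The log2 fold change between genotypes was -0.034 (SE 0.254), and it turned to 0.13 with the hair level as a covariate.

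Cdkn1c, Cdkn2a and Cdkn2b were the 3 of the 9 genes in which every library with a high hair level was above every other library, and in 0 of the 9 was every such library below. Over all genes these orders were found in 19.6% and 17.1%, together 36.7%, so a split by hair level is common in the whole table. The relation was not tested, because the hair level was measured from the same libraries and they fall into 2 sets. Several marker lists moved with it. All 12 melanocyte markers were measured, 11 of them were higher in every library with a high hair level than in every other library, and their sum ran from 651.2 to 947 CPM there and from 158.8 to 219.9 CPM in the others. Of 20 proliferation markers, 12 were above and 0 below, with sums of 834 to 1410 CPM against 584.1 to 686 CPM. All 10 skeletal muscle markers were below, with sums of 7697 to 13474 CPM against 22839 to 35176 CPM. Endothelial markers were below in 6 of 8, with sums of 333.3 to 354.1 CPM against 387.7 to 445.9 CPM. For basal keratinocyte markers, 5 of 10 were below and 0 above (10602.5 to 13683 CPM against 13902 to 15490 CPM). For suprabasal keratinocyte markers, 5 of 10 were below and 3 above (7001 to 7533 CPM against 10982.5 to 14967 CPM). Sums of fibroblast, adipocyte, T cell and macrophage markers overlapped between the sets. No melanocyte, proliferation, muscle, endothelial or keratinocyte marker was at 0 in any library, and the part of these cells in the levels of Cdkn1c, Cdkn2a and Cdkn2b was not tested. In bulk skin, fewer cells of a type and less RNA per cell cannot be told apart.

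**Figure D2:**
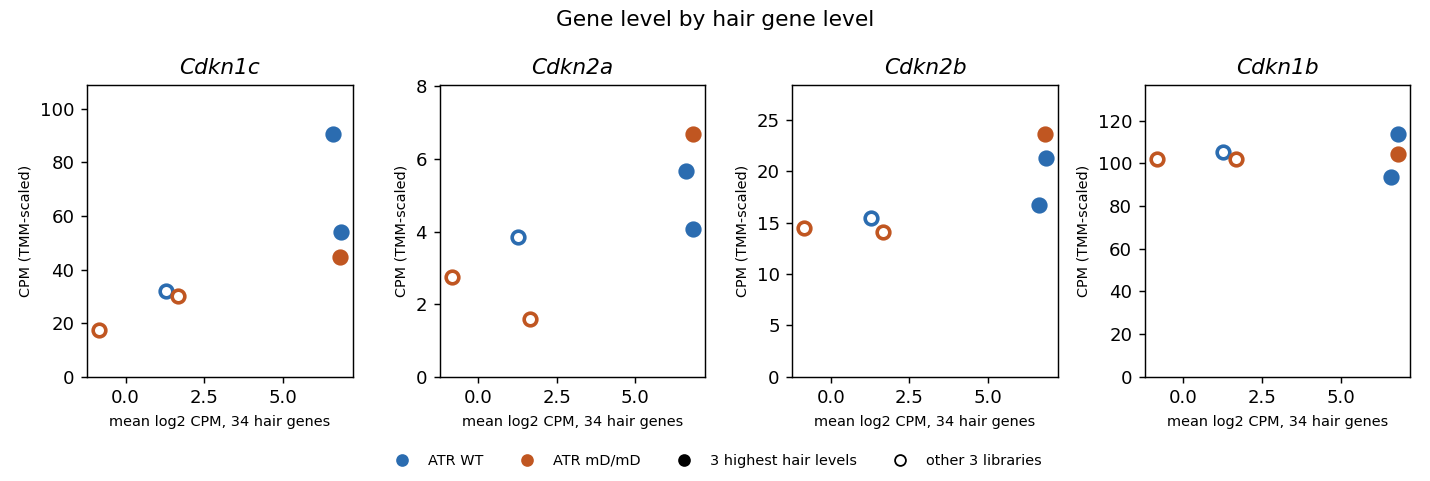
Level of Cdkn1c, Cdkn2a, Cdkn2b and, for comparison, Cdkn1b (y axis, CPM from 0) against the mean log2 CPM of 34 hair genes (x axis), 1 point per library, blue for ATR WT and orange for ATR mD/mD, filled for the 3 highest hair levels. In the first 3 genes the filled points all lie above the open ones, and in Cdkn1b they do not.

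The other INK4 genes, Cdkn2c and Cdkn2d, lie apart from the locus and did not share its pattern. Cdkn2c encodes p18 (chromosome 4, 109660876 to 109667189, minus strand). It measured 74.4, 75.6 and 52.4 CPM across ATR WT 1 to 3, against 68.4, 79.9 and 43.3 CPM across ATR mD/mD 1 to 3. Here ATR mD/mD 3 and ATR WT 3, both with a high hair level, were the lowest libraries, but ATR WT 2 was among the highest. The log2 fold change was -0.079 (SE 0.259). Cdkn2d encodes p19 of the INK4 family, a protein distinct from the Arf product of Cdkn2a (chromosome 9, 21288410 to 21291407, minus strand). It measured 24.2, 19.8 and 14.8 CPM across ATR WT 1 to 3, against 16.9, 18.4 and 21.9 CPM across ATR mD/mD 1 to 3. The ATR WT libraries alone covered the whole range of the 6, and the genotypes differed by a log2 fold change of -0.040 (SE 0.216).

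Per length of their joined exons, the inhibitors stood above the pocket proteins, with Cdkn2a as the exception. Over the 6 libraries, Cdkn2c was at 24.4 ± 5.43 CPM per kilobase, Cdkn1b at 22.8 ± 1.43 and Cdkn1c at 22.0 ± 12.6 (SD, n = 6), levels whose ranges overlapped. The range of Cdkn1c, from 8.65 to 44.5, also took in the next genes. Cdkn2b at 12.7 ± 2.84 and Cdkn2d at 12.3 ± 2.16 followed and did not differ beyond their spread. Rb1 was at 7.15 ± 1.003, Rbl2 at 4.58 ± 0.87, Rbl1 at 3.68 ± 0.481 and Cdkn2a at 3.51 ± 1.59, and the ranges of the last 3 overlapped. The lowest Rb1 value, 5.40, was just under the highest values of Rbl2 at 5.46 and Cdkn2a at 5.72. Cdkn2a was thus at about the level of the least abundant pocket protein. Joined exons include those of all annotated transcripts, which lowers these values for genes with several starts or ends, or with transcripts that keep an intron. All pocket protein genes have annotated transcripts of that kind, and of the inhibitors only Cdkn1c does. Its part in the order given here was not tested.

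The pocket proteins differed little between the genotypes, with log2 fold changes from -0.12 to 0.14. Rb1, the retinoblastoma protein that binds the activating E2F factors, lies on chromosome 14 (73183673 to 73325822, minus strand). It measured 32.5, 42.8 and 48.3 CPM across ATR WT 1 to 3, against 41.7, 43.3 and 49.4 CPM across ATR mD/mD 1 to 3. ATR WT 1 was the lowest library and the other 5 lay within 41.7 to 49.4 CPM, so the log2 fold change of 0.12 (SE 0.176) went to -0.012 without ATR WT 1. Lpar6 and Rcbtb2 lie on the opposite strand within or across the span of Rb1, so reads of these genes cannot be assigned by strand.

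Rbl1 encodes p107, a pocket protein that rises in cycling cells and binds repressive E2F factors (chromosome 2, 157145893 to 157204534, minus strand). It measured 18.8, 20.2 and 23.9 CPM across ATR WT 1 to 3, against 19.7, 23.3 and 26.2 CPM across ATR mD/mD 1 to 3. The groups overlapped over most of their range, with the highest value in ATR mD/mD 3. That library also had the highest sum of proliferation markers, but the other libraries did not keep this order. ATR mD/mD 2 had the lowest sum, 584.1 CPM, with Rbl1 at 23.3 CPM. ATR WT 2 had a sum of 935.6 CPM with Rbl1 at 20.2 CPM. The log2 fold change was 0.14 (SE 0.166, unadjusted p = 0.435, edgeR), and it ran from 0.038 without ATR mD/mD 3 to 0.24 without ATR mD/mD 1. Within each hair set, both Rb1 and Rbl1 were higher in every ATR mD/mD library than in every ATR WT library, an order that 10.7% of all genes showed in that direction. Some gaps were small. Rb1 was at 49.4 CPM in ATR mD/mD 3 and 48.3 CPM in ATR WT 3, and Rbl1 at 19.7 CPM in ATR mD/mD 1 and 18.8 CPM in ATR WT 1. In the set with a low hair level, ATR WT 1 was the only wild-type library. With the hair level as a covariate their log2 fold changes were 0.26 and 0.25, with unadjusted p of 0.106 and 0.119 (edgeR), not past the threshold.

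Rbl2 encodes p130, the pocket protein of resting cells and a part of the DREAM complex, which holds cell cycle genes silent (chromosome 8, 91070057 to 91123844, plus strand). It measured 34.1, 33.2 and 41.1 CPM across ATR WT 1 to 3, against 34.9, 41.3 and 23.3 CPM across ATR mD/mD 1 to 3. ATR mD/mD 3 was the lowest library by a wide margin and the other 5 lay within 33.2 to 41.3 CPM. Rbl1 and Rbl2 thus lay at opposite ends in that library, Rbl1 at its highest and Rbl2 at its lowest. The log2 fold change of Rbl2 was -0.12 (SE 0.228), and it was 0.078 without ATR mD/mD 3. Aktip overlaps the end of Rbl2 on the opposite strand.

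**Figure D3:**
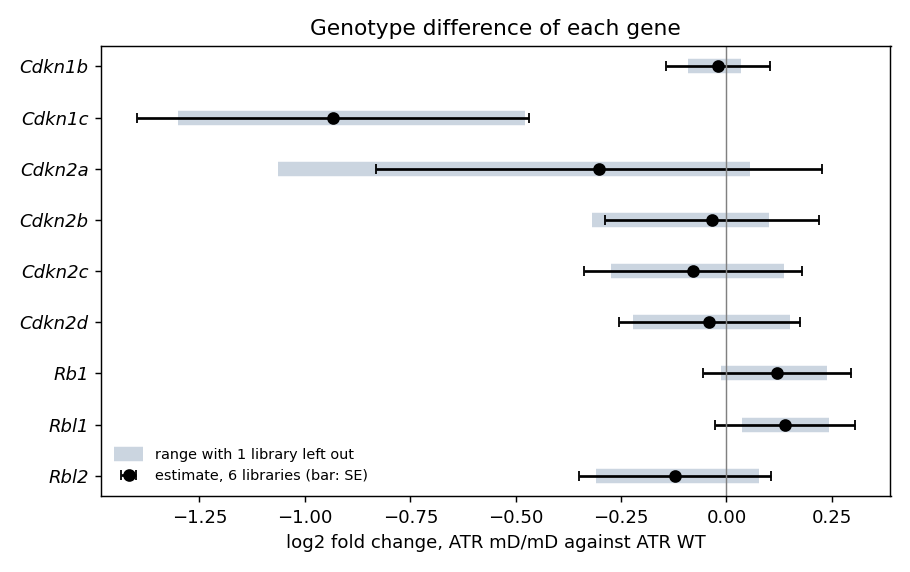
Log2 fold change of ATR mD/mD against ATR WT (x axis) for each of the 9 genes (y axis), as the estimate from 6 libraries with its SE (black) and the range obtained when 1 library is left out (grey). Cdkn1c is at -0.93 with a range of -1.30 to -0.48, Cdkn2a has a range of -1.06 to 0.057, and the other 7 estimates lie between -0.12 and 0.14.

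The genes around these brakes were also read from the same fit, in 6 lists. None of their measured members was called in either direction in edgeR at an adjusted p under 0.05, and none had an unadjusted p under 0.05 in that fit. Some unadjusted p-values fell under 0.05 with another method or with a library left out. Against 0.0483% and 1.66% of all genes, these counts of 0 say little about the lists. Of 12 measured genes of G1 cyclins and their kinases, 6 were below 0 and 6 above, with a median log2 fold change of -0.00059. Ccnd1, the cyclin D gene that responds to MAPK signalling, averaged 144.3 ± 21.9 CPM over wild-type and 112.4 ± 19.9 CPM over mutant libraries (SD, n = 3). Its log2 fold change was -0.36 (SE 0.186, unadjusted p = 0.0963, edgeR), and its groups overlapped. For the cyclin genes Ccnd3 and Ccne2 the log2 fold changes were -0.21 (SE 0.219) and 0.20 (SE 0.323). Without ATR mD/mD 3 that of Ccnd3 was -0.014. Cdk4 and Cdk6, the kinases that INK4 proteins bind, had -0.13 (SE 0.244) and 0.070 (SE 0.252). Cdk4 averaged 162.6 ± 15.0 CPM over wild-type and 148.6 ± 49.8 CPM over mutant libraries, and Cdk6 averaged 2.39 ± 0.168 and 2.51 ± 0.493 CPM (SD, n = 3).

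Among 7 cyclins and phosphatases of S phase and mitosis and Cdk1, 6 were above 0, with a median of 0.068. Their sum was 247.2 CPM in ATR mD/mD 3, but 114.4 and 120.7 CPM in ATR mD/mD 1 and 2. Across ATR WT 1 to 3 it was 126.0, 177.2 and 158.6 CPM. For the phosphatase genes Cdc25c, Cdc25b and Cdc25a the log2 fold changes were 0.42 (SE 0.745), 0.068 (SE 0.123) and -0.063 (SE 0.198). Of 10 E2F and DP genes, 4 were below 0 and 6 above, with a median of 0.018. E2f1 had 0.062 (SE 0.155), E2f5 had 0.13 (SE 0.224), E2f3 had -0.25 (SE 0.363) and E2f8 had -0.18 (SE 0.348). Of the 10, 7 were higher in every library with a high hair level than in every other library, an order of 19.6% of all genes. Of 7 genes of MuvB and its partners, 4 were above 0, with a median of 0.035, and Lin9, Rbbp4 and Lin37 had 0.13 (SE 0.168), -0.047 (SE 0.123) and 0.056 (SE 0.199). The proliferation marker Mki67 measured 57.2, 129.6 and 117.5 CPM across ATR WT 1 to 3, against 56.5, 43.3 and 234.9 CPM across ATR mD/mD 1 to 3. It was highest in the 3 libraries with a high hair level, and its log2 fold change was 0.14 (SE 0.68).

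Of 7 measured genes that turn over p27, 4 were below 0, with a median of -0.0071. Cks1b, the cofactor that lets the Skp2 ligase bind p27, had 0.105 (SE 0.406), and the ligase subunits Cul1 and Rbx1 had -0.033 (SE 0.155) and -0.030 (SE 0.18). The last list joins repressors and activators of the Cdkn2a and Cdkn2b locus with the genes through which Arf acts on p53. Of its 25 genes, 14 were below 0, with a median of -0.029. Tbx2, a T-box factor known to repress Cdkn2a, measured 15.0, 20.7 and 20.8 CPM across ATR WT 1 to 3, against 8.44, 11.1 and 17.1 CPM across ATR mD/mD 1 to 3. The 2 lowest values were ATR mD/mD libraries with a low hair level, and every library with a high hair level was above every other library. Tbx2 had a log2 fold change of -0.63 (SE 0.291, unadjusted p = 0.0711, edgeR). Its unadjusted p was 0.0496 with DESeq2 and 0.0461 with limma-voom (adjusted p 0.99998 and 0.9999). The log2 fold change was -0.41 with the hair level as a covariate (unadjusted p = 0.0293, edgeR). It was -0.95 when ATR mD/mD 3 was left out (unadjusted p = 0.00677, edgeR) and -0.42 when ATR mD/mD 1 was (unadjusted p = 0.178, edgeR). Each of these 3 fits had an adjusted p of at least 0.708 (edgeR). Id1, an inhibitor of the factors that activate Cdkn2a, had -0.39 (SE 0.247). It ran from -0.71 without ATR mD/mD 3 (unadjusted p = 0.0022, adjusted p = 0.638, edgeR) to -0.22 without ATR mD/mD 2. Trp53 and Mdm2 had -0.16 (SE 0.117) and -0.055 (SE 0.111), and Cdkn1a, which encodes the CIP/KIP protein p21, had -0.22 (SE 0.19). Cdkn1a averaged 231.3 ± 34.7 CPM over wild-type and 198.6 ± 36.1 CPM over mutant libraries (SD, n = 3).

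**Figure D4:**
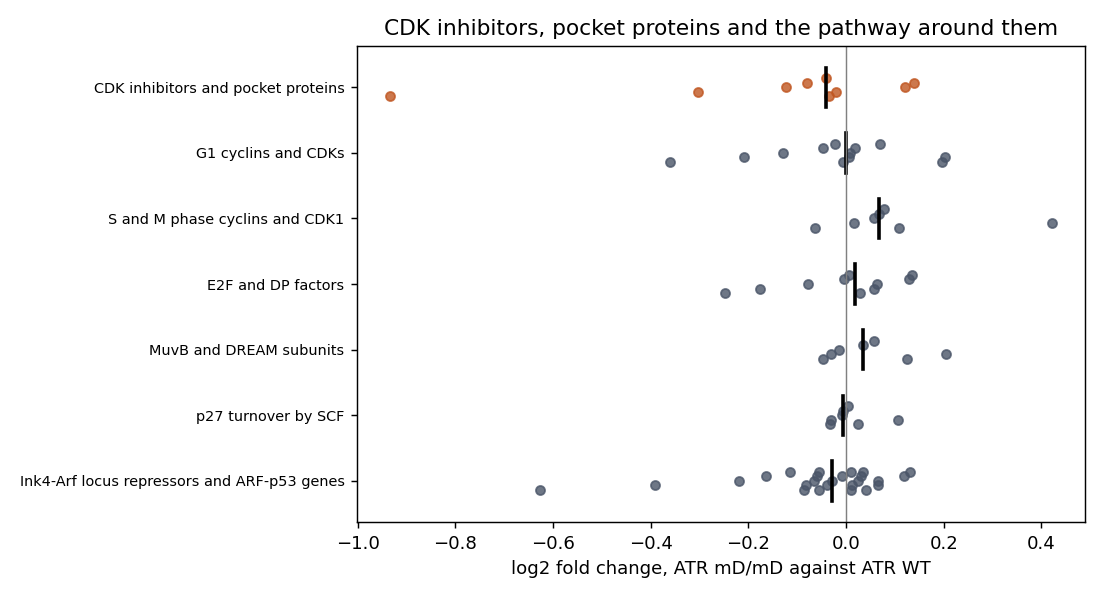
Log2 fold change of ATR mD/mD against ATR WT (x axis) for the measured genes of each list (y axis), orange for the 9 CDK inhibitors and pocket proteins, grey for 6 pathway lists, with black bars for list medians. List medians lie between -0.040 and 0.068, and the lowest points are Cdkn1c at -0.93 and Tbx2 at -0.63.

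The patterns of single genes over the 6 libraries were matched against 10122 genes with a mean of at least 10 CPM. Pearson's r of log2 CPM over 6 libraries that fall into 2 sets is a description here, and with so few points many genes reach a high value. Cdkn1c was most like Rnf41 (r = 0.977) and Sall2 (r = 0.97), Cdkn2a most like Ext2 (r = 0.994) and Lxn (r = 0.993), and Cdkn2b most like Abhd17c and Hacd3 (both r = 0.997). Rb1 was most like Herc4 (r = 0.996), Rbl1 most like Inadl (r = 0.993) and Rbl2 most like Gcc2 (r = 0.998). An r above 0.9 was reached by 427 genes for Cdkn2b, 315 for Rb1, 312 for Rbl2, 211 for Cdkn2d and 207 for Cdkn2a. It was reached by 109 genes for Cdkn2c, 76 for Rbl1, 61 for Cdkn1c and 18 for Cdkn1b.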

How the data were processed

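Raw read counts, 1 column for each of the 6 libraries, are what the authors deposited, and they are not normalized, per the file headers. Beside these counts stands the authors' own edgeR comparison as log2 fold change, average log2 CPM, p-value and adjusted p-value, per the file headers. The submitters' processing notes name FastQC, TopHat2 2.0.12, edgeR and the build mm10. No source used here gives the read counter or the annotation. Per the labels' protocols, messenger RNA was selected with oligo dT and libraries were made with TruSeq RNA v2, which keeps no strand information. The libraries held 34723600 to 46847751 gene counts, and 2 rows that name no gene, with 4.93% to 5.72% of counts, were left out.

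Counts were scaled by TMM and tested with edgeR 4.0.16 (quasi-likelihood, R 4.3.3), with no covariate and with Benjamini-Hochberg adjustment over 14484 genes. The filter filterByExpr removed none, and the script was checked on simulated data, which checks the code and not the power of the test in these libraries. SE is the size of the log2 fold change over the root of the F statistic. Log2 CPM used a prior count of 2. No 2 libraries of a group agreed within sampling noise. Alternatives used DESeq2 1.42.0, limma-voom (limma 3.58.1), edgeR's exact test, RLE scaling, other filters, a replicate block, covariates for the hair and Y-linked gene levels, the rows without a gene, and each library left out. Positions and exon lengths come from GENCODE M21 (mm10), and promoters from RefSeq (GRCm38.p6).

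The 9 genes, the lists and the tests were chosen with earlier results of these data known. Named are the 9 genes, the 3 genes of smallest p in each pathway list, some genes set by name (among them Cdk4, Cdk6, E2f1, Trp53, Mdm2 and Cdkn1a), and at most 2 genes most like each of the 9. Cdk3, Skp1, Flg, Cd8a and Trac were on the lists and, without a row under these symbols, are not analysed here.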

Additional observations from a re-analysis of the deposited data

How the results depend on the processing

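No alternative called any of the 9 genes, so that count stayed at 0, and 3 of them were highest in the libraries with a high hair level under TMM and RLE scaling alike. Over all genes, edgeR called 7, DESeq2 39, edgeR's exact test 25, and 4 with the Y-linked covariate. With 1 library left out, the count ran from 4 to 10. It was 4 without ATR WT 2, ATR WT 3 or ATR mD/mD 1. Of the 9 genes, Cdkn1c and Rbl1 had the same sign in every alternative run, though their size moved by over 1.5 times, and the causes of the turns below were not tested. The sign turned with the hair level as a covariate for Cdkn2b (0.13), E2f3 (0.047), E2f8 (0.047), Cul1 (0.082), Cdk4 (0.015) and Braf (0.16). It turned with limma-voom for Cdc25c (-0.0031), Cks1b (-0.047) and Mki67 (-0.19). It turned with the level of 4 Y-linked genes as a covariate for Lin37 (-0.037), Cul1 (0.018) and E2f1 (-0.0056). It turned with the replicate number as a block for Cks1b (-0.027) and Mki67 (-0.19). With 1 library left out, log2 fold changes that turned ran for Cdkn1b from -0.092 to 0.035, Cdkn2a from -1.06 to 0.057, Cdkn2b from -0.32 to 0.10, Cdkn2c from -0.27 to 0.14, Cdkn2d from -0.22 to 0.15, Rb1 from -0.012 to 0.24, Rbl2 from -0.31 to 0.078, Ccne2 from -0.0037 to 0.38, Cdc25c from -0.86 to 0.81, Cdc25b from -0.024 to 0.13, Cdc25a from -0.23 to 0.099, E2f5 from -0.025 to 0.25 and E2f8 from -0.62 to 0.044. They ran for Rbbp4 from -0.10 to 0.017, Lin37 from -0.14 to 0.15, Cks1b from -0.48 to 0.39, Cul1 from -0.13 to 0.065, Rbx1 from -0.18 to 0.079, Mdm2 from -0.089 to 0.0035, E2f1 from -0.047 to 0.13, Cdk4 from -0.44 to 0.0079, Cdk6 from -0.10 to 0.17, Atr from -0.095 to 0.11, Braf from -0.38 to 0.060 and Mki67 from -1.02 to 0.52. Without a turn of sign they ran for Cdkn1c from -1.30 to -0.48, Rbl1 from 0.038 to 0.24, Ccnd1 from -0.50 to -0.23, Ccnd3 from -0.42 to -0.014, E2f3 from -0.67 to -0.020, Lin9 from 0.054 to 0.19, Tbx2 from -0.95 to -0.42, Id1 from -0.71 to -0.22, Trp53 from -0.24 to -0.092 and Cdkn1a from -0.37 to -0.086. The replicate numbers were not shown to pair libraries: deviations of libraries with the same number correlated at 0.633, -0.51 and 0.57. With the replicate block 6 genes were called, and Cdkn1c was at -0.904 with an adjusted p of 1 (unadjusted p = 0.0163, edgeR). At 10 CPM in 3 samples Cdkn2a was filtered out and has no value. Cdkn2a, with 63 to 247 counts per library, is the member of the 9 that depth limits most.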
